A study of Homo sapiens with 6 samples.

Results

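The 40 genes described here are markers used to read the lineage and state of glioblastoma cells. They were taken from a list of names, with no cutoff on measured values, and are 40 of the 60612 genes in the table. The names were chosen with earlier results of these data known, so the shares called below are not those of a list chosen blind. By role they are 6 astrocytic genes, 3 genes of oligodendroglial progenitors, 10 genes of stem and progenitor cells, 8 mesenchymal genes, 12 neuronal genes and 1 gene with no lineage role, YKT6. Their RNA was measured by RNA sequencing in U87, an established human glioblastoma cell line that grows attached in serum. The NC group held 3 libraries of U87 cells with a lentiviral scramble shRNA, and the shPRMT6 group held 3 libraries of U87 cells with a lentiviral shRNA against PRMT6. Both groups were grown in DMEM with fetal bovine serum and carried a lentiviral vector, and by the study's methods transduced cells were selected with puromycin. PRMT6 is an arginine methyltransferase that places an asymmetric dimethyl mark on histone H3, and the comparison asked how gene expression differs when it is silenced. The shRNA used for sequencing was not named in the sources used here.

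Glioblastoma cells resemble several cell types of the developing brain, and single tumors hold cells in astrocyte-like, oligodendrocyte progenitor-like, neural progenitor-like and mesenchymal-like states. The markers of these states are intermediate filaments, surface proteins and the transcription factors that set a lineage, such as the SOX, OLIG, ZEB and SNAI families. Serum-grown lines are known to lose many glial and stem cell markers and to keep mesenchymal ones. In RNA of whole cultures, fewer cells of a type and less RNA per cell cannot be told apart.

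Total counts ranged from 56388161 to 75887696 per library. In every library the low counts were spaced by 3.65 to 3.69, with 4 as the commonest count above 0, so that a deposited count was not 1 fragment. With 1 spacing taken as 1 fragment, a limit of 3 fragments lay at about 11 counts, or 0.146 to 0.196 CPM, the counts scaled to library size. This limit covers counting error only. The unit is inferred from the spacing, and 612 to 699 genes a library had a count of 1, below the spacing. The targeted gene, PRMT6, had 522, 606 and 449 counts in NC and 227, 282 and 355 in shPRMT6, without overlap. Its level in shPRMT6 was 54.7% of NC (log2 fold change -0.87, SE 0.187, adjusted p = 0.0225), and it passed the threshold in 12 of 17 fits. It did not pass without NC replicate 1 or shPRMT6 replicate 1 or 2, with a replicate block, or in limma on unfiltered log2(FPKM + 1) (adjusted p up to 0.0803). Markers of haematopoietic, endothelial, epithelial and melanocytic cells were read as a check of the culture. AIF1, CD3E, KRT5 and TYR had no count in any library. Summed CPM ran from 148 to 256 in NC and 144 to 316 in shPRMT6 for the 5 haematopoietic genes, which was nearly all CD68, from 8.94 to 17.8 and 16.6 to 17.6 for the 4 endothelial genes, and from 1.72 to 2.45 and 2.62 to 3.59 for the 4 melanocytic genes. By edgeR none of the 6 tested genes of these 3 lists passed the threshold, 2 of them, PECAM1 and MITF, had an unadjusted p under 0.05, PECAM1 passed with DESeq2, and the epithelial list is given with the mesenchymal markers.

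Levels in U87 cells are compared between genes in FPKM, which the authors scaled to gene length and library size. By NC means, all mesenchymal markers but CHI3L1 (0.869 FPKM) were above 1 FPKM. Some of the neuronal and stem cell markers and few of the glial ones were also above it. Of the 40 markers, 28 had a count in all libraries, 5 were at 0 in some libraries and 7 were at 0 in every library. The 7 were the water channel AQP4, the calcium-binding protein S100B, the folate enzyme ALDH1L1, the transcription factors OLIG1 and SOX11, the Notch ligand DLL3 and the microtubule protein DCX. A mean of more than 1 FPKM in NC was reached by 19 markers.

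VIM, which encodes the intermediate filament vimentin, had the highest level of the 40 at 1299 ± 97.1 FPKM in NC (SD, n = 3), and ranked 22 of the 19327 genes counted in all NC libraries. UCHL1, a ubiquitin hydrolase abundant in neurons, followed at 172.8 ± 28.5 FPKM. Below them came the hyaluronan receptor CD44 at 47.8 ± 8.42, STMN1 at 46.95 ± 7.53, the transcription factor SNAI2 at 44.0 ± 1.20 and YKT6 at 40.3 ± 1.36 FPKM. These 4 means lay within the range of CD44 over the NC libraries, 38.3 to 54.3 FPKM. TUBB3 ranked 1209 and CSPG4, at 20.2 ± 1.69 FPKM, ranked 1827, and the remaining markers over 1 FPKM lay between 1.03 FPKM for NFIB and 6.60 FPKM for CDH2.

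Most glial markers were low, with CSPG4 an exception. GFAP, the intermediate filament of astrocytes, was at 0.0218 ± 0.0138 FPKM in NC and the glutamate transporter SLC1A2 at 0.0206 ± 0.00124 FPKM. SLC1A3, the other glial glutamate transporter, stood apart from them at 3.58 ± 1.69 FPKM. The oligodendroglial factor OLIG2 was at 0.656 ± 0.152 FPKM, with 120 to 200 counts in every library. SOX2, the stem cell factor, was at 0.065 ± 0.058 FPKM with 1 NC library at 0. For NFIA, CDH2 and STMN2 the FPKM implied a gene length 6.13, 2.05 and 0.546 times the annotated exon bases, against a median of 1.19 over 12019 genes, so their levels are not on the same length scale as that of most genes.

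Between shPRMT6 and NC, 7 markers passed the threshold of an adjusted p under 0.05. GAP43, CHI3L1, SOX9, ZEB1 and UCHL1 rose, and STMN1 and CSPG4 fell. They came from 4 of the lineage groups, and in the neuronal group members moved in both directions. The filter on low counts left 31 of the 40 markers to be tested, and the called ones were 22.6% of these, while 18.6% of all 18106 genes tested were called. By direction 5 markers were higher, where 9.51% of all genes were, and 2 were lower, where 9.06% of all genes were. The median log2 fold change was 0.04 over the tested markers and -0.01 over all genes. With the study's own rule, read here as a log2 fold change past 1 in either direction with an unadjusted p under 0.05, 2 members, GAP43 and CHI3L1, were called, against 5.92% of all genes. The groups did not overlap for 12 of the 31 tested markers, 8 of them higher and 4 lower, and for 40.2% of all genes tested. Each of the 7 called markers was above the filter's level in all 6 libraries. Of the 24 tested markers that were not called, 14 had an absolute log2 fold change under 0.2.

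**Figure D1:**
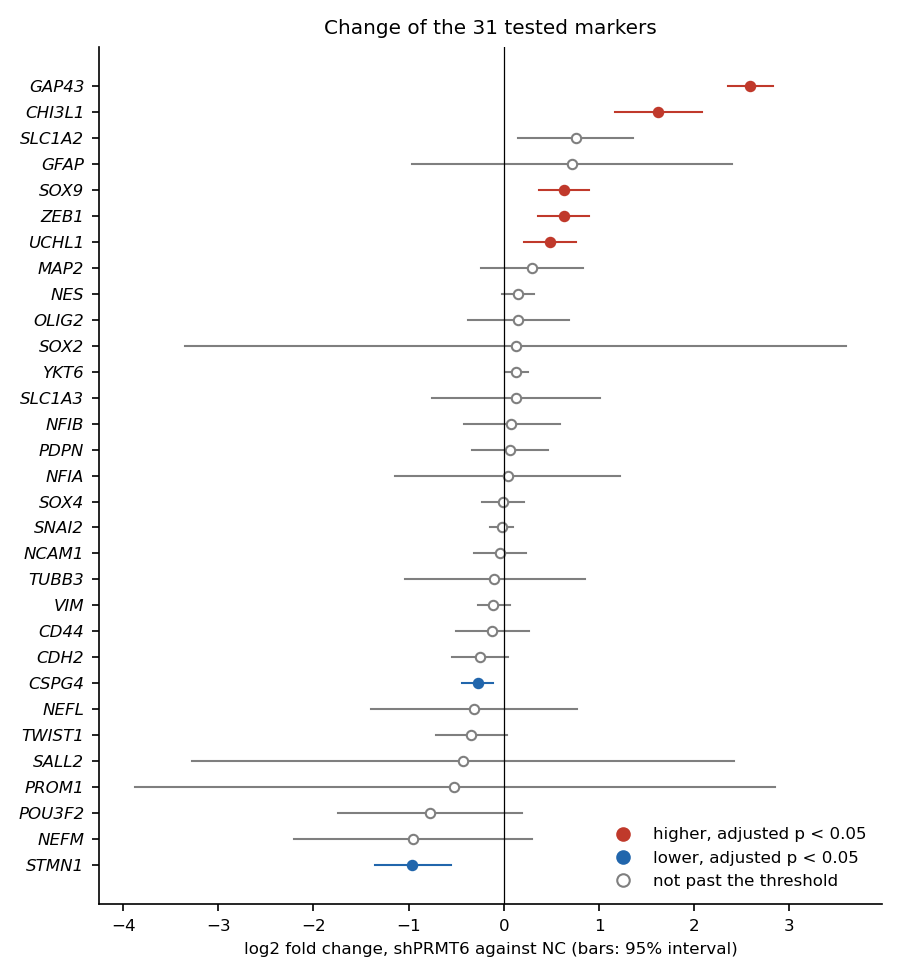
Log2 fold change of shPRMT6 against NC for the 31 tested markers, with bars for the 95% interval. Filled points passed the adjusted threshold, red for higher and blue for lower. GAP43 at 2.59 and CHI3L1 at 1.62 stand at the top and STMN1 at -0.96 at the bottom, and SOX2, PROM1 and SALL2 have the widest intervals.

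The promoters of the markers with the largest called changes, GAP43 and CHI3L1 among those that rose and STMN1 among those that fell, are printed because ZEB1 and SNAI2, themselves markers of the list, are factors that bind E-boxes. Each runs 5′ to 3′ on the gene's strand from 250 bases before a RefSeq start to 50 after it (GRCh38.p14), and capitals mark the E-box letters CANNTG, which read the same on both strands. The GAP43 window is chr3:115623260-115623559 on the plus strand, the CHI3L1 window chr1:203186655-203186954 on the minus strand, and the STMN1 window, 1 of 3 for that gene, chr1:25906370-25906669 on the minus strand.
GAP43: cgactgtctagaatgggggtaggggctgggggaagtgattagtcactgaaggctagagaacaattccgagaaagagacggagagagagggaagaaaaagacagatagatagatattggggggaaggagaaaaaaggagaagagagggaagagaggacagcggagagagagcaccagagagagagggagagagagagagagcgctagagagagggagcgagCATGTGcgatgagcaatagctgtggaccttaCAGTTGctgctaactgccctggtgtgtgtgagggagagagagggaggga
CHI3L1: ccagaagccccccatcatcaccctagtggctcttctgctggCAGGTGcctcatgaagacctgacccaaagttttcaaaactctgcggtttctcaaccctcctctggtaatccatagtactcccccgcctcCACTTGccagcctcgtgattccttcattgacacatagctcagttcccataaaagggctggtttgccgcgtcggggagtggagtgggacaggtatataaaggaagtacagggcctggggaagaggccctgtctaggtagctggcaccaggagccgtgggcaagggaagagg
STMN1: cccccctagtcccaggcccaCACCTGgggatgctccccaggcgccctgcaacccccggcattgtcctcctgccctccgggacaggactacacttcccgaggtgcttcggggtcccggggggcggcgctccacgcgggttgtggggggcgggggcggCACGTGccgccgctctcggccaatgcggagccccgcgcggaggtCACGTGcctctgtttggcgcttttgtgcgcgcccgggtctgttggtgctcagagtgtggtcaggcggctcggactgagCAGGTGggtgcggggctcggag
The GAP43 window held 2 matches, the CHI3L1 window 2 and the STMN1 window 4, while the other 2 STMN1 windows held 1 and 0. Of 35116 RefSeq promoters of this length, 68.7% held at least 1 match and 5.58% held 4 or more. The narrower CACCTG, a case of CANNTG which is CAGGTG on the other strand, was found at 1 place in the CHI3L1 window, at 2 in the printed STMN1 window and at none in the other STMN1 windows or the GAP43 window, and 20.6% of all promoters held it. The letters TATAAA were in the CHI3L1 window, as in 7.33% of all promoters. These matches describe the letters and do not show binding.

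Among the neuronal markers, the growth cone protein gene GAP43 rose and the microtubule destabilizer STMN1 fell. GAP43 (ENSG00000172020, chr3:115623324-115721490 in GENCODE 29 on GRCh38) encodes a membrane-attached phosphoprotein of growing axons. It was at 6.99, 6.34 and 6.18 CPM in the NC libraries and at 41.8, 37.1 and 38.8 CPM in shPRMT6. All shPRMT6 libraries lay far above all NC libraries. The rise was 6.03-fold (95% interval 5.12 to 7.09; log2 fold change 2.59, SE 0.0982, adjusted p = 0.000175), and the spread within each group was 6.59% and 6.16% of the mean.

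STMN1 (ENSG00000117632, chr1:25884181-25906991) encodes stathmin, which is abundant in neural precursors and in dividing cells. Its CPM was 312, 412.5 and 321 in NC and 174, 150 and 215 in shPRMT6. The lowest NC library stood above the highest shPRMT6 library. Its level in shPRMT6 was 51.6% of NC (fold 0.516, 95% interval 0.393 to 0.676; log2 fold change -0.96, SE 0.163, adjusted p = 0.0103).

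UCHL1 (ENSG00000154277, chr4:41256413-41268455) had 420, 539 and 401 CPM in NC and 662, 626 and 617 in shPRMT6. NC replicate 2 lay well above the other NC libraries and below all shPRMT6 libraries. The rise was 1.40-fold (95% interval 1.16 to 1.70; log2 fold change 0.49, SE 0.116, adjusted p = 0.0321). This call was held in 10 of 17 fits. It was lost without NC replicate 1 (adjusted p = 0.0862), NC replicate 3 (0.0923) and shPRMT6 replicate 1, 2 or 3 (0.10, 0.0875 and 0.0779).

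The other neuronal markers did not pass. TUBB3, the neuronal beta-tubulin, was at 195, 87.5 and 192 CPM in NC and at 223, 118 and 102 in shPRMT6. Both groups held high and low libraries, with a spread of 38.6% and 44.3% of the mean, and the log2 fold change was -0.10 (95% interval -1.04 to 0.85, adjusted p = 0.893). Same-strand exons of AC092143.1 cover 35.8% of the exon bases of TUBB3, and how the counting shared such reads was not given in the sources used here. NCAM1, a neural adhesion molecule, had a mean of 36.2 CPM in NC and 35.2 in shPRMT6 (log2 fold change -0.04, 95% interval -0.31 to 0.23, adjusted p = 0.844).

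The dendritic protein MAP2 had 3.40, 2.79 and 3.11 CPM in NC and 4.81, 2.88 and 3.72 in shPRMT6 (log2 fold change 0.30, adjusted p = 0.413). The neurofilament genes were low in all libraries. NEFL had 32, 27 and 34 counts in NC and 25, 34 and 16 in shPRMT6, and NEFM had 31, 50 and 22 against 8, 21 and 23. The NEFM libraries did not overlap in CPM (0.353 to 0.658 in NC and 0.126 to 0.341 in shPRMT6), shPRMT6 replicate 1 was under the limit of 3 fragments, and the test gave an adjusted p of 0.262. L1CAM, an axonal adhesion molecule, had 12, 0 and 19 counts in NC and 8, 0 and 4 in shPRMT6, and STMN2, a stathmin of growing axons, 8, 0 and 0 against 4, 0 and 10. Both were left out by the filter, as were DCX and DLL3, for which a count of 0 in every library allows up to 0.196 CPM in the shallowest library.

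**Figure D2:**
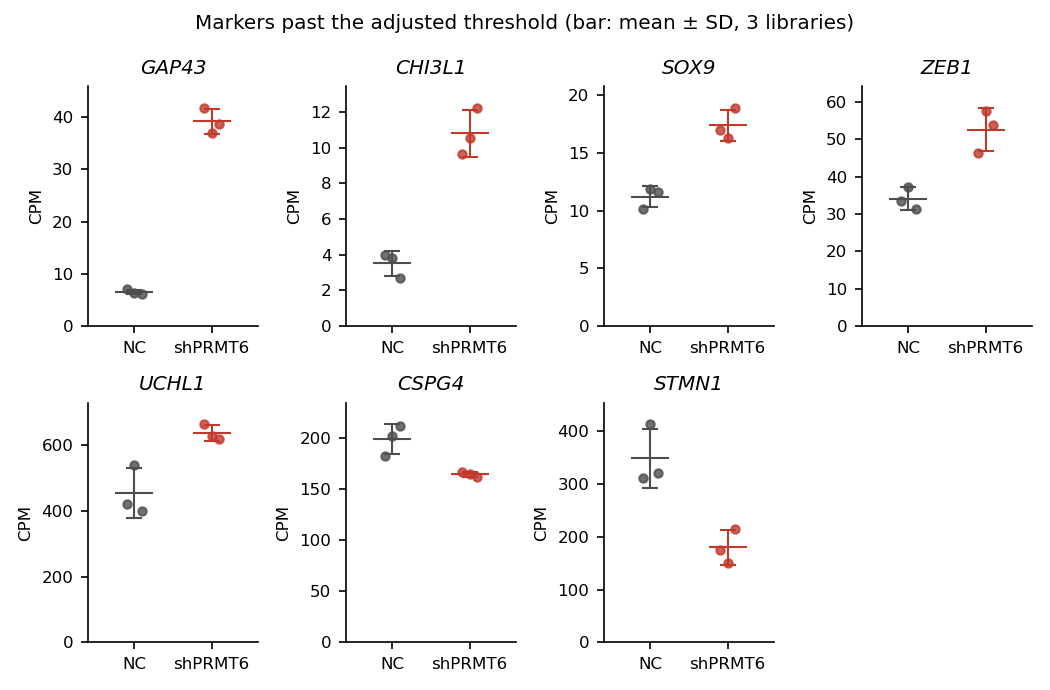
CPM of the 7 markers past the adjusted threshold, 1 point a library, with the mean and SD of 3 libraries in grey for NC and red for shPRMT6 and axes from 0. No marker shows overlap between the groups, and the fold is largest for GAP43, at 6.51 CPM on average in NC and 39.2 in shPRMT6.

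Among the mesenchymal markers, CHI3L1 and ZEB1 rose and the other 6 of 8 did not pass. CHI3L1 (ENSG00000133048, chr1:203178931-203186749) encodes YKL-40, a secreted chitinase-like glycoprotein used as a mesenchymal marker. Its CPM was 3.97, 3.84 and 2.71 in NC and 9.63, 10.6 and 12.3 in shPRMT6. Every shPRMT6 library was above every NC library. The rise was 3.08-fold (95% interval 2.25 to 4.23; log2 fold change 1.62, SE 0.190, adjusted p = 0.00294), from 0.869 to 2.71 FPKM on average.

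ZEB1 (ENSG00000148516, chr10:31318495-31529814) encodes a zinc finger factor that binds E-boxes and is known as a repressor of epithelial genes. It was at 33.5, 37.4 and 31.3 CPM in NC and at 46.3, 57.7 and 54.0 in shPRMT6. The groups were apart, and the rise was 1.54-fold (95% interval 1.28 to 1.86; log2 fold change 0.63, SE 0.111, adjusted p = 0.0117). SNAI2, a factor of the same E-box-binding kind, had 170, 177 and 168 CPM in NC and 169, 170.2 and 168 in shPRMT6. These libraries were nearly level, and the interval of the difference was narrow (log2 fold change -0.02, 95% interval -0.14 to 0.10, adjusted p = 0.828). TWIST1, a helix-loop-helix factor, had 12.5, 11.2 and 15.4 CPM in NC and 9.08, 11.3 and 10.5 in shPRMT6 (log2 fold change -0.34, adjusted p = 0.181), with 1 shPRMT6 library inside the NC range.

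VIM had 8427, 7300.0 and 8238 CPM in NC and 7090.0, 7289 and 7897 in shPRMT6. The ranges overlapped, and the log2 fold change was -0.11 (95% interval -0.27 to 0.06, adjusted p = 0.356). CD44 had 651, 455 and 598 CPM in NC and 613, 456 and 502 in shPRMT6, with a low library in each group (log2 fold change -0.12, 95% interval -0.50 to 0.27, adjusted p = 0.672). The cadherin CDH2 was at a mean of 67.3 CPM in NC and 56.5 in shPRMT6 (log2 fold change -0.25, adjusted p = 0.204), and the mucin-like podoplanin PDPN at 20.9 and 21.8 (0.06, adjusted p = 0.834).

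Epithelial genes were read beside these markers. Of the 6 on that list 5 were tested, and CDH1 and KRT8 were lower in shPRMT6. CDH1, the epithelial cadherin, had 0.554, 0.763 and 0.609 CPM in NC and 0.251, 0.065 and 0.103 in shPRMT6 (adjusted p = 0.0428). Replicates 2 and 3 of shPRMT6 were under the limit of 3 fragments, at 0.179 and 0.163 CPM in those libraries, so the size of the fall is not given. KRT8, a keratin, fell by 1.23 on the log2 scale (SE 0.286, adjusted p = 0.0295). These calls were held in 6 of 13 fits for CDH1 and 8 of 15 for KRT8. Both were lost without NC replicate 1, 2 or 3 and without shPRMT6 replicate 2 or 3, with an adjusted p of up to 0.128 for CDH1 and 0.0828 for KRT8 over all fits. The list summed to 17.0 to 23.1 CPM in NC and to 5.34 to 10.3 CPM in shPRMT6. The part of these cells or genes in the change of ZEB1 was not tested.

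In the stem and progenitor group SOX9 rose and the other 8 tested markers did not pass. SOX9 (ENSG00000125398, chr17:72121020-72126420) encodes a factor of glial fate and neural stem cells. Its CPM was 10.2, 11.9 and 11.7 in NC and 17.0, 16.4 and 18.9 in shPRMT6. No library of one group reached the range of the other, and the rise was 1.55-fold (95% interval 1.29 to 1.86; log2 fold change 0.63, SE 0.109, adjusted p = 0.0106). SOX4, another SOX factor of progenitors, had 38.8, 36.0 and 32.9 CPM in NC and 33.7, 35.2 and 37.9 in shPRMT6 (log2 fold change -0.01, 95% interval -0.23 to 0.21, adjusted p = 0.953).

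NES encodes nestin, the intermediate filament of neural stem cells. It was at 38.3, 42.9 and 41.3 CPM in NC and at 45.1, 45.7 and 45.4 in shPRMT6. The groups did not overlap, and the difference missed the threshold (log2 fold change 0.15, 95% interval -0.02 to 0.32, adjusted p = 0.194). POU3F2, a neural POU factor, had 19, 38 and 36 counts in NC and 15, 19 and 19 in shPRMT6. Its CPM did not overlap (0.340 to 0.577 in NC and 0.236 to 0.309 in shPRMT6), some libraries were close to the limit of 3 fragments, and the adjusted p was 0.236.

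The nuclear factor genes NFIA and NFIB, which act in gliogenesis, each had 1 low NC library. NFIA was at 1.23, 5.43 and 4.58 CPM in NC and at 3.91, 3.38 and 4.31 in shPRMT6. The low value in NC replicate 1 gave a spread of 59.2% of the mean where counting error was 12.0%, and the log2 fold change was 0.04 (95% interval -1.14 to 1.22, adjusted p = 0.965). NFIB was at 17.5, 18.9 and 10.7 CPM in NC and at 15.7, 17.5 and 16.6 in shPRMT6, with NC replicate 3 low (log2 fold change 0.08, adjusted p = 0.826).

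The stem cell markers SOX2, PROM1 and SALL2 were close to the limit of detection. SOX2 had 0, 19 and 21 counts in NC and 26, 0 and 16 in shPRMT6, so that each group held a library at 0. PROM1, the CD133 antigen, had 0, 19 and 12 counts against 0, 12 and 8, and the zinc finger factor SALL2 had 19, 19 and 0 against 16, 4 and 8. A difference in these 3 genes was not detectable at this depth, since their adjusted p ran from 0.841 to 0.964 and their log2 intervals reached from below -3 to above 2. SOX11 had no count in any library.

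Of the oligodendroglial progenitor markers, CSPG4 fell slightly. CSPG4 (ENSG00000173546, chr15:75674322-75712848) encodes the NG2 proteoglycan of oligodendrocyte progenitors and pericytes. It was at 182.5, 202 and 211 CPM in NC and at 167, 164 and 162 in shPRMT6. The shPRMT6 libraries were close together below all NC libraries, at 82.8% of the NC mean (fold 0.828, 95% interval 0.739 to 0.927; log2 fold change -0.27, SE 0.0683, adjusted p = 0.0374). The call was held in 9 of 17 fits. It was lost without NC replicate 2 (adjusted p = 0.0732), NC replicate 3 (0.109) and shPRMT6 replicate 1, 2 or 3 (0.101, 0.118 and 0.118). OLIG2 had 2.15, 2.32 and 3.20 CPM in NC and 2.42, 3.20 and 2.86 in shPRMT6, with overlapping ranges (log2 fold change 0.15, 95% interval -0.38 to 0.68, adjusted p = 0.703).

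None of the 6 astrocytic markers passed the threshold in the edgeR fit used throughout, and 1 of the 3 tested had an unadjusted p under 0.05. That gene, SLC1A2, had 32, 46 and 33 counts in NC and 58, 59 and 69 in shPRMT6. Its CPM did not overlap (0.529 to 0.605 in NC and 0.911 to 1.02 in shPRMT6), and the spread of 6.73% of the mean in NC was below the 31.5% that counting error alone gives at this depth. The log2 fold change was 0.76 (SE 0.252, 95% interval 0.15 to 1.36, adjusted p = 0.0866). DESeq2 called no astrocytic marker either, and SLC1A2 passed in an edgeR fit that asked for at least 10 counts in every library (adjusted p = 0.0458).

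GFAP had 30, 16 and 13 counts in NC and 11, 31 and 60 in shPRMT6, a spread of 59.3% and 68.5% of the mean (log2 fold change 0.72, 95% interval -0.96 to 2.40, adjusted p = 0.536). Leaving out NC replicate 1 moved the log2 fold change to 1.31, and leaving out shPRMT6 replicate 1 or 3 moved it to 1.13 or 0.10. SLC1A3 was at 41.5, 20.2 and 18.5 CPM in NC and at 34.2, 34.4 and 19.3 in shPRMT6. High and low libraries were found in both groups, with a spread of 47.9% of the mean in NC where counting error was 4.69%, and the log2 fold change was 0.13 (95% interval -0.75 to 1.01, adjusted p = 0.847). S100B, AQP4 and ALDH1L1 stayed at 0 in both groups.

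YKT6, a SNARE protein of vesicle fusion, is no lineage marker. Its CPM was 181, 171 and 181 in NC and 195.9, 195.1 and 192 in shPRMT6. The groups did not overlap, the unadjusted p was 0.0429, and the adjusted p missed the threshold (log2 fold change 0.13, SE 0.0519, adjusted p = 0.139).

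**Figure D3:**
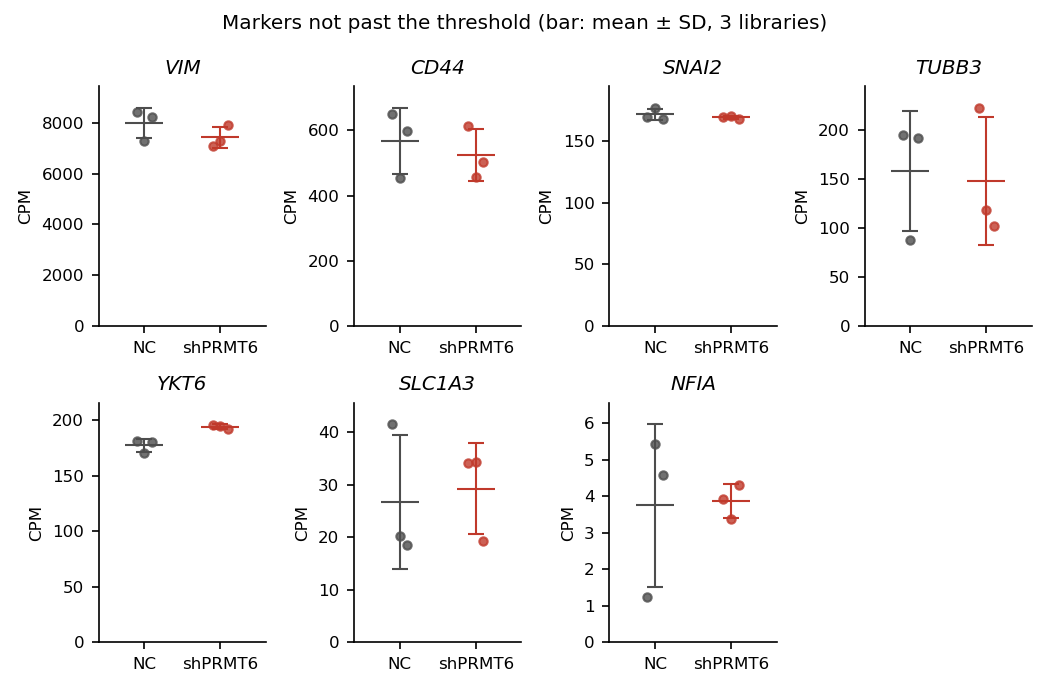
CPM of 7 markers that did not pass, 1 point a library, with the mean and SD of 3 libraries and axes from 0. They are the 5 with a mean of at least 100 CPM, and SLC1A3 and NFIA, whose NC libraries spread by 47.9% and 59.2% of the mean. SNAI2 is level between the groups, while TUBB3 spreads widely in both.

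Another 124 genes tied to the same lineages, as markers or as regulators, were read from the same fit and set beside the markers. These lists too were chosen with earlier results of these data known. Of these, 93 were tested, 14 were higher and 9 lower, with a median log2 fold change of -0.04, beside 9.51% higher and 9.06% lower of all genes tested, and the counts of each list are to be read against these shares. The astrocytic list of 18 had 2 higher and 0 lower among 13 tested. SPARC, a matrix protein made by astrocytes and mesenchymal cells, rose by 0.76 on the log2 scale (SE 0.0575, adjusted p = 0.00088) and the gap junction gene GJA1 by 0.38 (SE 0.0551, adjusted p = 0.00581). No gene of the oligodendroglial progenitor list of 16 passed by edgeR, where 7 were tested and the lowest unadjusted p was 0.296, and none passed with DESeq2 or limma. In the stem and progenitor list of 21, with 13 tested, the integrin ITGA6 rose by 0.84 (adjusted p = 0.00968) and the neural factor PAX6 fell by 0.96 (adjusted p = 0.00742) on the log2 scale.

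All 29 genes of the mesenchymal list were tested, and 6 were higher and 5 lower, with a median log2 fold change of 0.02. COL5A1, a fibrillar collagen, was at 162, 181 and 177 CPM in NC and at 348, 344 and 360 in shPRMT6 (log2 fold change 1.02, adjusted p = 0.000472). STAT3, a factor that drives mesenchymal genes, had a log2 fold change of 0.83 (adjusted p = 0.000822) and the phospholipid-binding protein gene ANXA1 of 0.56 (adjusted p = 0.00168).

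The neuronal list of 40 had 31 genes tested, 5 higher and 3 lower, with a median of -0.14. DCLK1, a microtubule-associated kinase related to DCX, was at 0.572, 1.04 and 0.801 CPM in NC and at 7.43, 6.97 and 7.10 in shPRMT6 (log2 fold change 3.15, SE 0.240, adjusted p = 0.000895). All shPRMT6 libraries were above all NC libraries, as for GAP43. TAGLN3 rose by 0.94 (adjusted p = 0.00245) and the adhesion molecule NCAM2 by 0.97 (adjusted p = 0.00404), while RCOR1, a corepressor that works with REST, fell by 0.43 (adjusted p = 0.00542), all on the log2 scale. RCOR1 is counted among the 3 lower genes, but as a regulator it is no neuronal marker, and its fall is not read as the loss of one.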

How the data were processed

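Gene expression of U87 was measured in 6 RNA-seq libraries, 3 a group by their labels, which the study's methods call independent replicates. The authors deposited counts per gene, whose low values are spaced by about 3.68 for a reason not given in the sources used here. The authors also deposited FPKM, in which a count of 0 is listed at 0.0001. The submitters' processing notes name HISAT2, HTSeq 0.13.5 and GRCh38, with no role or order. The use of strand was not given, so reads of antisense partners cannot be told apart. Exons of the largest single partner cover 38.9% of NEFM, 18.4% of GFAP, 12.4% of VIM and under 12% of other members.

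The quasi-likelihood test of edgeR 4.0.16 (R 4.3.3) was run on TMM-scaled libraries after filterByExpr by condition, with no replicate block and with Benjamini-Hochberg adjustment over the 18106 genes tested. CPM are TMM-scaled, and intervals and adjusted p are from this fit unless another tool is named. In simulated data, with settings not given here, DESeq2 made a larger share of false calls than edgeR did. Gene positions and exon bases are from GENCODE 29, and promoters from RefSeq (GRCh38.p14), where 26 members had an entry. Counts divided by the spacing were also fitted, an alternative chosen after seeing the data. Other alternatives were DESeq2 1.42.0, other scaling and filters, limma 3.58.1 on log2(FPKM + 1) and log2(FPKM + 0.1), a stricter threshold, a replicate block and each library left out.

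Members and related lists were chosen with earlier results of these data known. All members are given, those called or with a mean of at least 100 CPM with every library, and of each related list at most the 4 genes with the smallest p. For 1 related gene that this rule names, no values are reported here.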

Additional observations from a re-analysis of the deposited data

How the results depend on the processing

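GAP43, CHI3L1, SOX9, ZEB1 and STMN1 were called in all 17 fits. Members called numbered 2 at an adjusted p under 0.01 (2 higher, 0 lower), when 1320 genes passed in all, and 5 to 6 with 1 library left out (4 to 5 higher, 1 to 2 lower), when 1755 to 3183 genes passed. The lowest counts of genes came without shPRMT6 replicate 2 (1755), 3 (1858) or 1 (1871) and without NC replicate 3 (1939), and 1 member was lower in these fits and without NC replicate 2 (3183). A single member was lower (STMN1) with at least 1 count in any library, with the replicate block and with unfiltered log2(FPKM + 1) in limma. The replicate block gave 1858 genes and 5 members, without CSPG4 and UCHL1. Same-numbered libraries did not deviate together (correlations of -0.025, -0.017 and -0.03), so no pairing by number was seen. With 3 libraries a group, a weak pairing could go unseen. GAP43 alone passed the fold rule with limma on log2(FPKM + 1), with or without the filter (1 member each), and 3 members did without NC replicate 1 or 3 or shPRMT6 replicate 3, when STMN1 was at -1.03, -1.01 and -1.10. UCHL1 was also lost in the unfiltered limma fit (adjusted p = 0.0648). At least 10 counts in every library gave 8 members, with SLC1A2. DESeq2 called 4023 genes and 7 members.

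Members that were not called changed sign in some fits, with the cause not tested. Under the block SOX2 was at -0.18 and SALL2 at 0.01 on the log2 scale. With 1 library left out the log2 fold change ranged from -0.71 to 0.73 for SOX2, -0.37 to 0.41 for NFIA, -0.13 to 0.24 for NFIB, -0.07 to 0.05 for SOX4, -1.30 to 0.10 for PROM1, -1.08 to 0.19 for SALL2, -0.08 to 0.59 for SLC1A3, -0.07 to 0.25 for PDPN, -0.04 to 0.00 for SNAI2, -0.12 to 0.04 for NCAM1 and -0.52 to 0.11 for TUBB3. Depth limits GFAP, SOX2, PROM1, SALL2, POU3F2, NEFL, NEFM, L1CAM, STMN2 and, among other genes, CDH1, with libraries near or under 3 fragments.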
